A study of Mus musculus with 4 samples.

Results

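The core circadian clock genes were examined in the liver of WT and *G9a*ΔHep mice. The 10 genes were the activators *Arntl*, *Clock* and *Npas2*, the repressors *Per1*, *Per2*, *Per3*, *Cry1* and *Cry2*, and the clock-controlled transcription factors *Dbp* and *Tef*. They were chosen by name and read at each probe set that the array annotation assigns to that symbol alone, which gave 25 of the 45101 probe sets on the array. Of the 18193 genes with such a probe set, 10350 were tested. A gene was tested where a probe set was called Present on at least 2 arrays, and 9 of the 10 core clock genes met that rule. *Npas2* did not.

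Liver without tumour was taken for total RNA, with 1 array per mouse, from 2 WT mice (*Alb-Cre;G9a*+/+) and 2 *G9a*ΔHep mice, labelled G9aKO, that carried *Alb-Cre* and floxed *G9a*. All were males backcrossed to C57BL/6. At 15 days of age they were injected with the carcinogen diethylnitrosamine (DEN, 25 mg/kg), followed by 22 weekly injections of the hepatotoxin carbon tetrachloride (CCl4, 0.5 ml/kg), and the liver was taken at 30 weeks of age. The albumin promoter drives Cre in hepatocytes, to delete G9a, a histone H3K9 methyltransferase. The authors found residual G9a protein in whole *G9a*ΔHep liver and ascribed it, as probable, to cells other than hepatocytes. Both genotypes thus shared *Alb-Cre*, DEN and CCl4, and no group without them was analysed here. The mice were kept with 12 h of light and 12 h of dark and ate ad libitum. Neither the hour of collection nor the time since the last CCl4 injection is given in the sources used here. Array numbers below follow the order of the samples and pair nothing.

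The clock of mouse liver is a feedback loop of transcription and translation. ARNTL (also called BMAL1) binds E-boxes together with CLOCK or its relative NPAS2 and switches on the *Per* and *Cry* genes, whose products return to the nucleus and repress their own activators. The same loop drives *Dbp* and *Tef*, which act at D-boxes, while nuclear receptors of the ROR and REV-ERB families act at RORE sites to time *Arntl*. In the liver of mice kept in light and dark, *Arntl* mRNA is high around the end of the night and *Dbp* mRNA towards the end of the day, so that the level of each gene depends on the hour at which the tissue is taken. The loop can also be shifted by feeding.

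The deposited value of a probe set is its MAS5 signal, an intensity on a linear scale that is comparable between arrays but not between probe sets. The trimmed mean signal was 500.0 on each array, 41.3% to 43.9% of probe sets were called Present, and 95% of Absent signals lay below 170.5 to 181.1. The probe set of *Ehmt2*, which encodes G9a, was called Present in WT liver, with signals of 640.4 and 492.5, and Absent in *G9a*ΔHep liver, with 174.1 and 163.7. The geometric means differed by 3.33-fold, with an adjusted p of 0.063 in limma. The size is not exact, since the *G9a*ΔHep signals were Absent. Whether that probe set lies in the deleted exons was not determined. Hepatocyte markers were among the brightest signals on the array, and *Alb* ranged from 57072 to 69483.

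The promoters show which of these clock elements stand near the start of each gene. RefSeq windows of 250 bases before to 50 bases after a start (GRCm38.p6) were found for 9 of the 10 genes, 14 windows in all. *Per2* had no entry. Both strands were searched for the E-box CACGTG, which 7.15% of all 32851 windows hold, the noncanonical E-box CACGTT (4.68%), the D-box as TTATGTAA or TTACGTAA (1.06%), the RORE core as TAGGTCA or TGGGTCA (6.45%) and the cyclic AMP response element TGACGTCA (1.79%). An E-box was found for *Cry1*, *Per1* and *Tef*, the noncanonical one for *Cry1* and *Cry2*, a pair of D-boxes for *Per3* and an RORE core for *Arntl*, 30 bases after its start. No window of *Dbp*, *Clock* or *Npas2* held any of them. A match is a description of the sequence and not evidence of binding. The stretches below are printed for the genes whose arrays differed most, 5′ to 3′ on the strand of the gene, with the matches in capitals.
*Arntl* RORE core, chr7:113207531-113207557, plus strand: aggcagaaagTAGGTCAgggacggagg
*Cry1* noncanonical E-box and E-box, chr10:85185068-85185193, minus strand: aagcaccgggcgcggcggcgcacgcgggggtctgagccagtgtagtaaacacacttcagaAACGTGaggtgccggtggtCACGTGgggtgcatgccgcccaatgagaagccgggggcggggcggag
*Per3* D-boxes, chr4:151044756-151044883, minus strand: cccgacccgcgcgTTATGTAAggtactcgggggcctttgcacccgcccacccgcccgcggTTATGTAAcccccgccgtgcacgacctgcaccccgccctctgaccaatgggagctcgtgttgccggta
*Tef* E-box, chr15:81802486-81802611, plus strand: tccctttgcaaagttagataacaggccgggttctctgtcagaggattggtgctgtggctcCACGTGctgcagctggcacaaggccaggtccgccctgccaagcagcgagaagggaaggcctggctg

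Among the activators, *Arntl* separated the mice within each genotype and not the genotypes. Its signal was 542.6 and 228.3 in WT liver and 720.9 and 229.0 in *G9a*ΔHep liver. One mouse of each genotype was therefore high and one low, and the low mice of the 2 genotypes were nearly equal. The arrays differed by 2.38-fold in WT liver and 3.15-fold in *G9a*ΔHep liver. Only 2.48% of genes tested lay that far apart or farther in WT liver and 1.12% in *G9a*ΔHep liver. Across the genotypes the log2 fold change was 0.21 with an SE of 0.63 and an adjusted p of 0.936 in limma. The other *Arntl* probe set was Absent on all arrays, with signals of 75.9 to 127.6.

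*Clock*, the partner of *Arntl*, differed in the same direction by less. Its brightest probe set gave signals of 1387 and 990.1 in WT liver and 1299 and 829.6 in *G9a*ΔHep liver, a difference of 1.40-fold and 1.57-fold. The groups overlapped. All 4 *Clock* probe sets were lower on array 2 than on array 1 in each genotype, by 0.34 to 0.97 on the log2 scale in WT liver and by 0.06 to 0.71 in *G9a*ΔHep liver. Between the genotypes the log2 fold change was -0.17 (SE 0.27, adjusted p = 0.869, limma), and 2 of the other 3 probe sets had the opposite sign, at 0.44 and 0.30. *Npas2*, which can take the place of *Clock*, was not called Present at either probe set. Its signals were 11.7 to 80.5 at one and 20.5 to 97.7 at the other, where 1 *G9a*ΔHep array was called Marginal, all within the range of Absent signals, so that no difference was detectable.

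Among the repressors, *Cry1* followed the pattern of *Arntl*. Signals of 631.5 and 239.9 in WT liver and of 633.7 and 222.5 in *G9a*ΔHep liver meant that array 1 was higher by 2.63-fold and 2.85-fold. The corresponding *G9a*ΔHep and WT arrays were almost level with each other. The log2 fold change between genotypes was -0.05, and its 95% interval of -1.57 to 1.47 was set by the spread within them. *Cry2*, the other cryptochrome, stood at 368.1 and 381.0 in WT liver and at 258.7 and 388.6 in *G9a*ΔHep liver. It thus showed no such split in WT liver, where 86.8% of genes lay at least as far apart, and a 1.5-fold difference in *G9a*ΔHep liver.

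*Per2* and *Per3* ran in the direction opposite to *Arntl* and *Cry1*. *Per2* was at 218.1 and 363.1 in WT liver and at 237.8 and 825.1 in *G9a*ΔHep liver, so that array 2 was higher by 1.66-fold and 3.47-fold. *Per3* was at 163.3 and 323.1 in WT liver and at 152.7 and 527.5 in *G9a*ΔHep liver, higher on array 2 by 1.98-fold and 3.45-fold. Its array 1 signals were called Present but lay within the range of Absent signals, so that these sizes are not exact. For both genes *G9a*ΔHep array 2 was the highest of the 4 and array 1 of either genotype the lowest. The direction was shared by all 3 probe sets of *Per2* and all 6 of *Per3* in each genotype, although 2 of each were Present on fewer than 2 arrays. Over the 4 *Per3* probe sets that were Present on at least 2 arrays, the log2 difference was 0.22 to 1.71 in WT liver and 0.95 to 2.08 in *G9a*ΔHep liver. The log2 fold changes between genotypes were 0.65 (SE 0.59, adjusted p = 0.752, limma) for *Per2* and 0.31 (SE 0.63, adjusted p = 0.906, limma) for *Per3*. The second brightest *Per3* probe set gave 79.4 and 92.2 in WT liver and 136.4 and 262.8 in *G9a*ΔHep liver, without overlap. All of these but 262.8 lay within the range of Absent signals. Its log2 fold change was 1.15, with an adjusted p of 0.468 in limma with all probe sets kept apart, and another detected *Per3* probe set had the opposite sign at -0.29.

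*Per1*, a repressor that also responds acutely to glucocorticoids and to cyclic AMP, behaved differently. Its signal was 636.2 and 615.7 in WT liver and 709.0 and 932.8 in *G9a*ΔHep liver. Both *G9a*ΔHep arrays lay above both WT arrays, and it was the only one of the 9 genes tested whose groups did not overlap at the brightest probe set. Of all genes tested, 22.3% had both *G9a*ΔHep arrays above both WT arrays and 19.3% had both below, so that 1 of 9 above and 0 of 9 below was no more than the background. The log2 fold change was 0.38 with a 95% interval of -0.09 to 0.85 and an adjusted p of 0.574 in limma.

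The widest difference was that of *Dbp*, the clock-controlled factor that activates D-boxes. Its signal was 422.9 and 6760 in WT liver and 614.5 and 7350 in *G9a*ΔHep liver. Array 2 was higher by 16.0-fold in WT liver and by 12.0-fold in *G9a*ΔHep liver, and all 4 signals were called Present. No more than 0.106% of genes in WT liver and 0.087% in *G9a*ΔHep liver lay as far apart. The second probe set of *Dbp* gave signals of 229.5 and 2211 in WT liver and of 263.0 and 2648 in *G9a*ΔHep liver, 9.63-fold and 10.1-fold apart. When genes that moved the same way in both genotypes were ordered by the smaller of their 2 log2 differences, *Dbp* came first of 10350 with 3.58. Between the genotypes its log2 fold change of 0.33 had an SE of 1.55 and a 95% interval of -3.46 to 4.12, so that these arrays carried little information on *Dbp* between genotypes.

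*Tef*, a close relative of *Dbp*, differed in the same direction. Its signal was 3351 and 5592 in WT liver and 2684 and 5415 in *G9a*ΔHep liver, higher on array 2 by 1.67-fold and 2.02-fold. All 3 *Tef* probe sets shared that direction in both genotypes, one of them Absent throughout. The log2 fold change between genotypes was -0.18 (SE 0.38, adjusted p = 0.906, limma) at the brightest probe set and 0.31 at the other detected one.

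**Figure D1:**
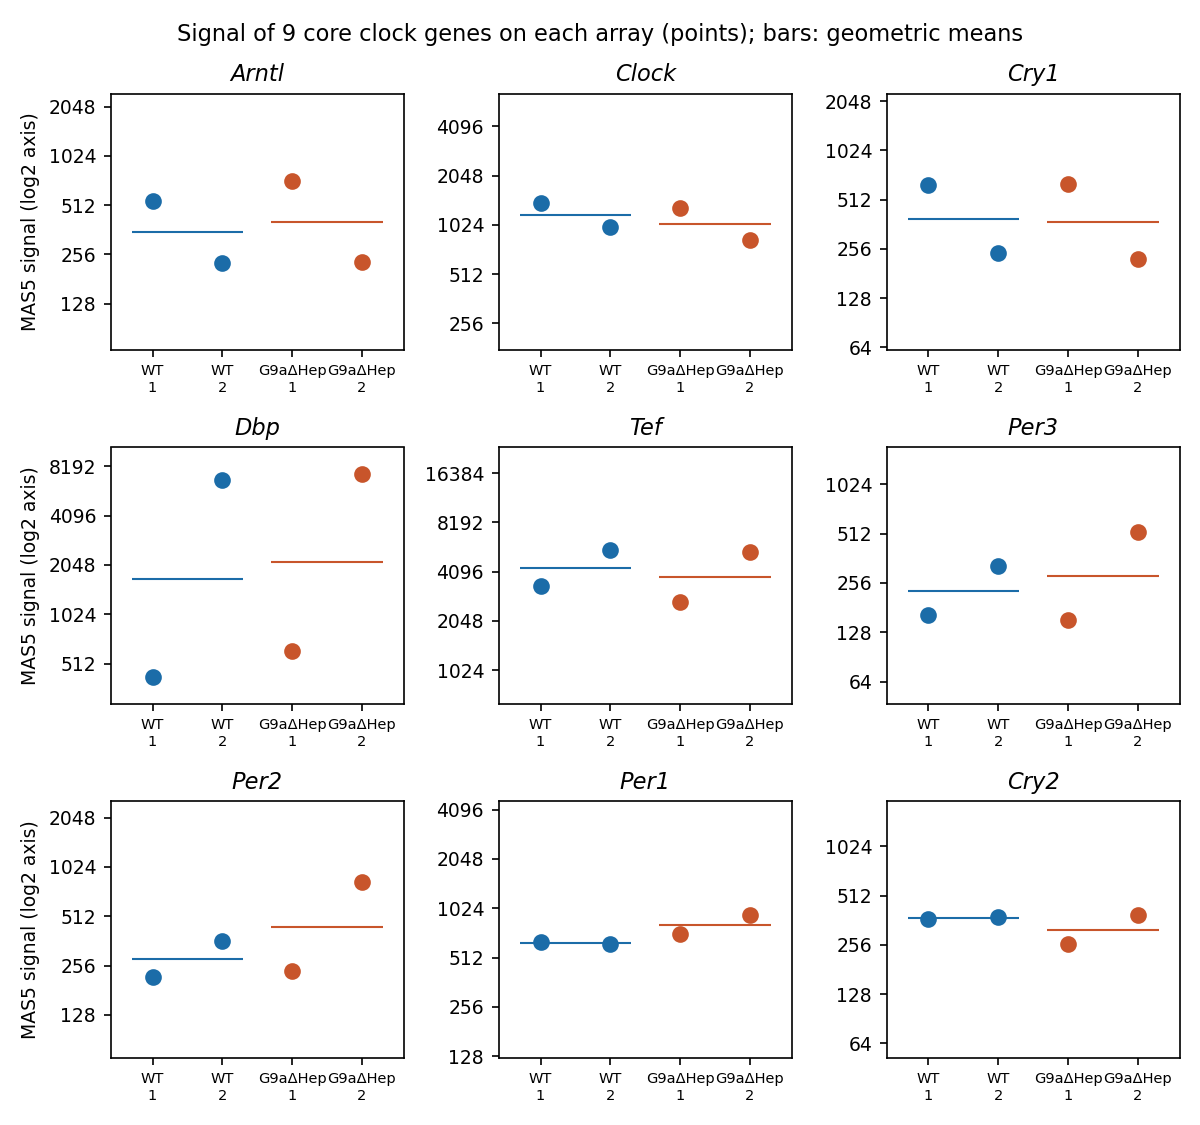
Signals (MAS5, log2 axis) of the 9 core clock genes that were tested, with 1 point per array and a bar at the geometric mean of each genotype. All panels span the same number of doublings. *Arntl*, *Clock* and *Cry1* were lower on array 2 of both genotypes, *Dbp*, *Tef*, *Per3* and *Per2* were higher, and for *Per1* and *Per2* the bars of the genotypes lay farther apart than for the others.

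Set side by side, 8 of the 9 core clock genes differed in the same direction between array 1 and array 2 in WT and in *G9a*ΔHep liver, 5 of them higher and 3 lower on array 2. *Per1* was the exception. In WT liver *Cry2*, among the 8, and *Per1* differed by only 1.04-fold and 1.03-fold, so that their signs there carry little information. The same sign in both genotypes was seen for 56.6% of all genes tested. At least 2-fold apart were 3 of the 9 in WT liver, *Arntl*, *Cry1* and *Dbp*, against 4.32% of all genes tested, and 6 of the 9 in *G9a*ΔHep liver, those 3 with *Per2*, *Per3* and *Tef*, against 4.89%. Higher by 2-fold or more on array 2 in both genotypes was *Dbp*, 1 of the 9, against 0.251% of all genes tested, and lower were *Arntl* and *Cry1*, 2 of the 9, against 0.483%. Since each array is 1 mouse, these differences between arrays have no test, and the counts are a description.

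The numbers of the arrays carry no meaning of their own, so a match of array 1 with array 2 of the other genotype would be as admissible. Across all genes, 76 were at least 2-fold apart in both genotypes with the arrays of the same number alike, and 37 with the arrays of opposite number alike. The 3 core clock genes of this kind all belonged to the 76.

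**Figure D2:**
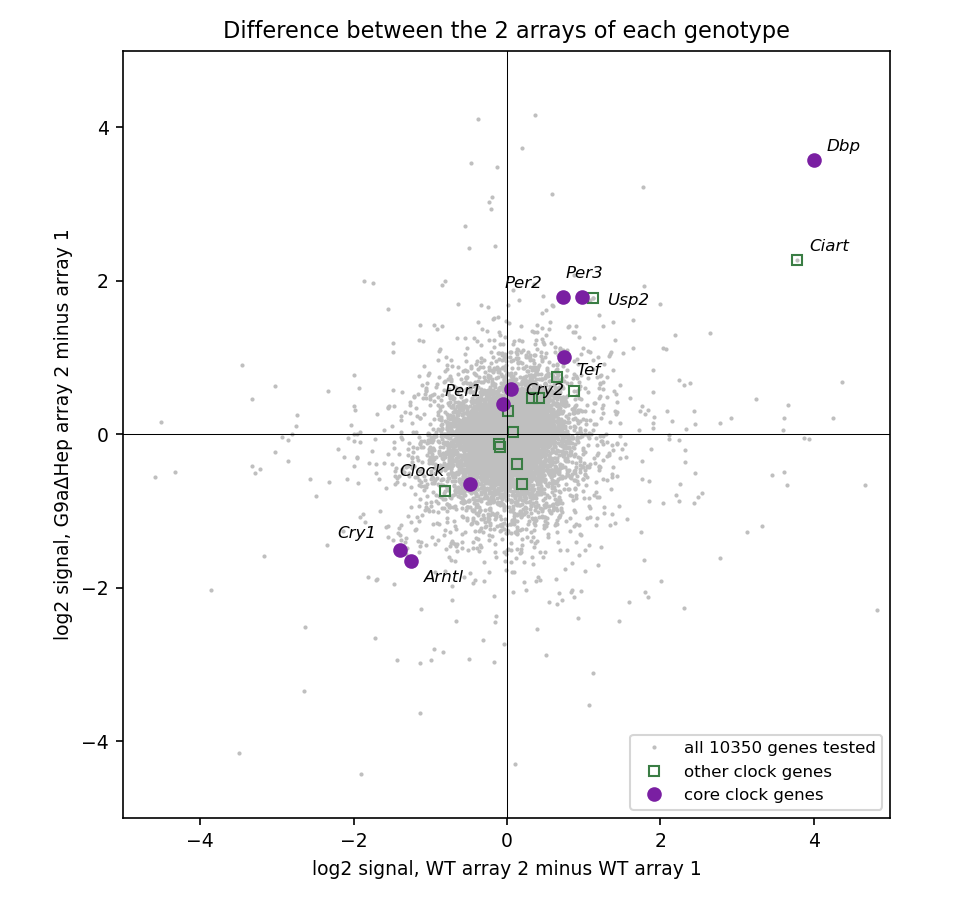
Log2 difference between array 2 and array 1 in WT liver (x axis) and in *G9a*ΔHep liver (y axis), with 1 grey point for each of the 10350 genes tested, filled circles for core clock genes and open squares for the other clock genes listed. *Dbp* stood alone at 3.999 and 3.58 with *Ciart* next to it, whose array 1 signals were not called Present, and *Cry1* and *Arntl* lay opposite, below -1.2 on both axes.

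Genes put in 2 groups by the hours at which they are known to peak differed in opposite directions. The groups were chosen with earlier results of these data known. *Per1*, *Per2*, *Cry1* and *Cry2* were in neither group. Of these, *Per1* had no shared direction, with log2 differences between the arrays of -0.047 in WT liver and 0.396 in *G9a*ΔHep liver. The morning group, *Arntl* and *Clock*, deviated on average from its mean over the 4 arrays by 0.43 and -0.44 on the log2 scale in WT liver and by 0.58 and -0.57 in *G9a*ΔHep liver. The late day group, *Dbp*, *Tef* and *Per3*, deviated by -1.03 and 0.88 in WT liver and by -0.99 and 1.14 in *G9a*ΔHep liver. WT array 1 and *G9a*ΔHep array 1 were thus high in the morning group and low in the late day group, and the other arrays were the reverse. The difference between the arrays was -0.87 in WT and -1.15 in *G9a*ΔHep liver for the morning group and 1.91 and 2.13 for the late day group. *Dbp* carried much of the late day value. Without it the difference was 0.86 in WT liver and 1.40 in *G9a*ΔHep liver. With the extremes at each end left out, single genes tested ranged from -0.96 to 0.93 in WT liver. In *G9a*ΔHep liver that range was -1.13 to 0.82. In WT liver the morning group and the late day group without *Dbp* thus both lay inside the range of single genes. In *G9a*ΔHep liver the morning group, at -1.15, lay just outside it, and the late day group without *Dbp* lay farther outside. The part of the hour of collection in these differences was not tested.

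The probe sets of a gene were alike in direction where they were detected. Of the 25 probe sets, 14 were Present on all 4 arrays, 17 on at least 2 and 7 on none. Where a gene had more than 1 detected probe set (*Clock*, *Per3*, *Dbp* and *Tef*), each had the same sign as the brightest one in both genotypes.

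**Figure D3:**
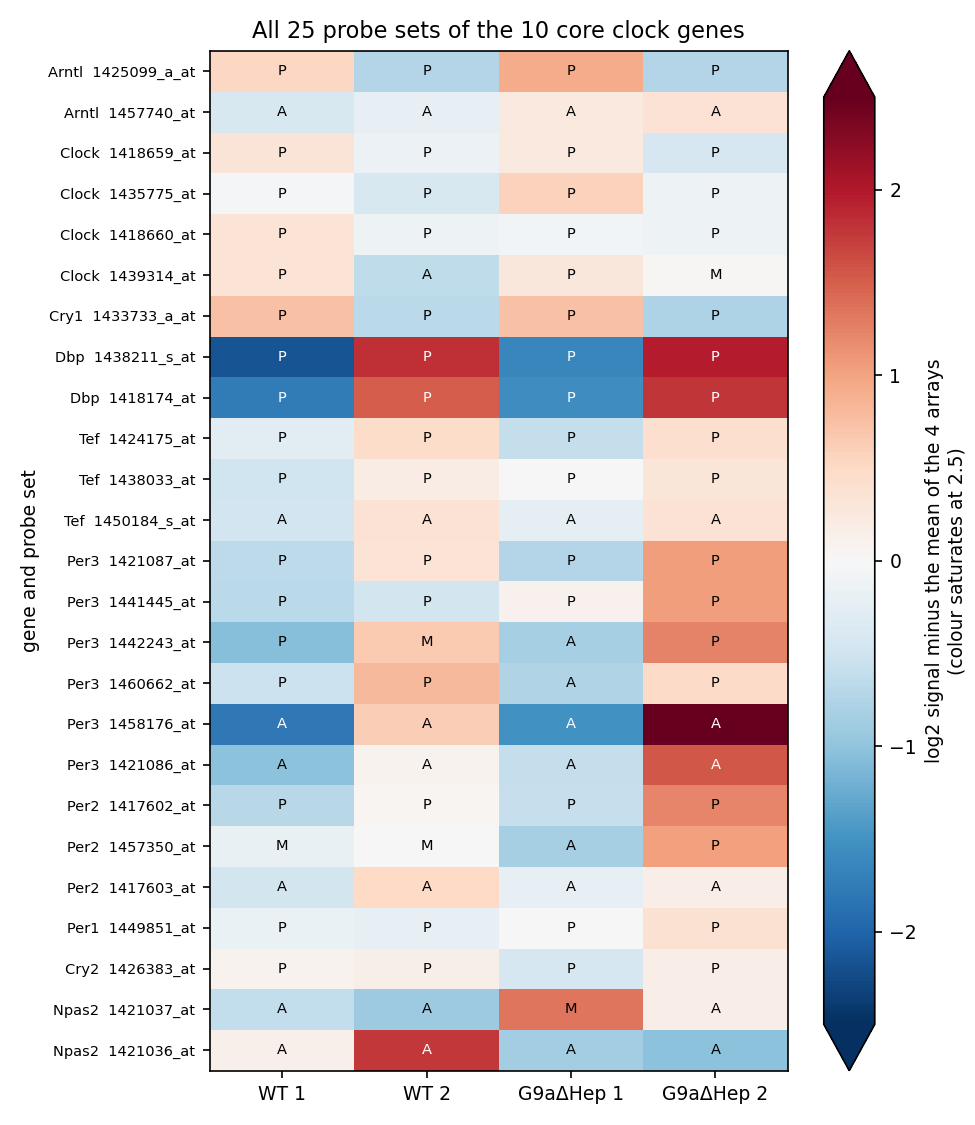
Log2 signal of all 25 probe sets of the 10 core clock genes on each array, as the deviation from the mean of the 4 arrays of that probe set, in colour from -2.5 to 2.5. Letters give the detection call (P Present, M Marginal, A Absent). Columns 2 and 4 were each below the column to their left for the detected probe sets of *Arntl*, *Clock* and *Cry1* and above it for those of *Dbp*, *Tef*, *Per3* and *Per2*, and *Npas2* was not called Present.

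Between the genotypes, 0 of the 9 core clock genes passed an adjusted p of 0.05 in limma in either direction, and 0 had an unadjusted p under 0.05, against 10% (1037) of all genes tested. Both counts were also 0 without a mean-variance trend. That fit called 0 of all genes tested at the adjusted threshold, so its adjusted count was fixed. In the main fit 0.319% of all genes tested were called higher and 0.0676% lower in *G9a*ΔHep liver, so that no call among 9 genes is also what the background gives. The median log2 fold change was 0.21 over the 9 genes and 0.02 over all genes tested. With 2 arrays against 2, an exact two-sided permutation test cannot go below 0.33 and was not used. The p-values set the difference between genotypes against the spread within them, which limma moderates by the spread of other genes. For *Arntl*, *Clock*, *Cry1*, *Per2*, *Per3*, *Dbp* and *Tef* the arrays of a genotype lay farther apart than the genotypes did. For these genes neither a change nor its absence was shown.

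**Figure D4:**
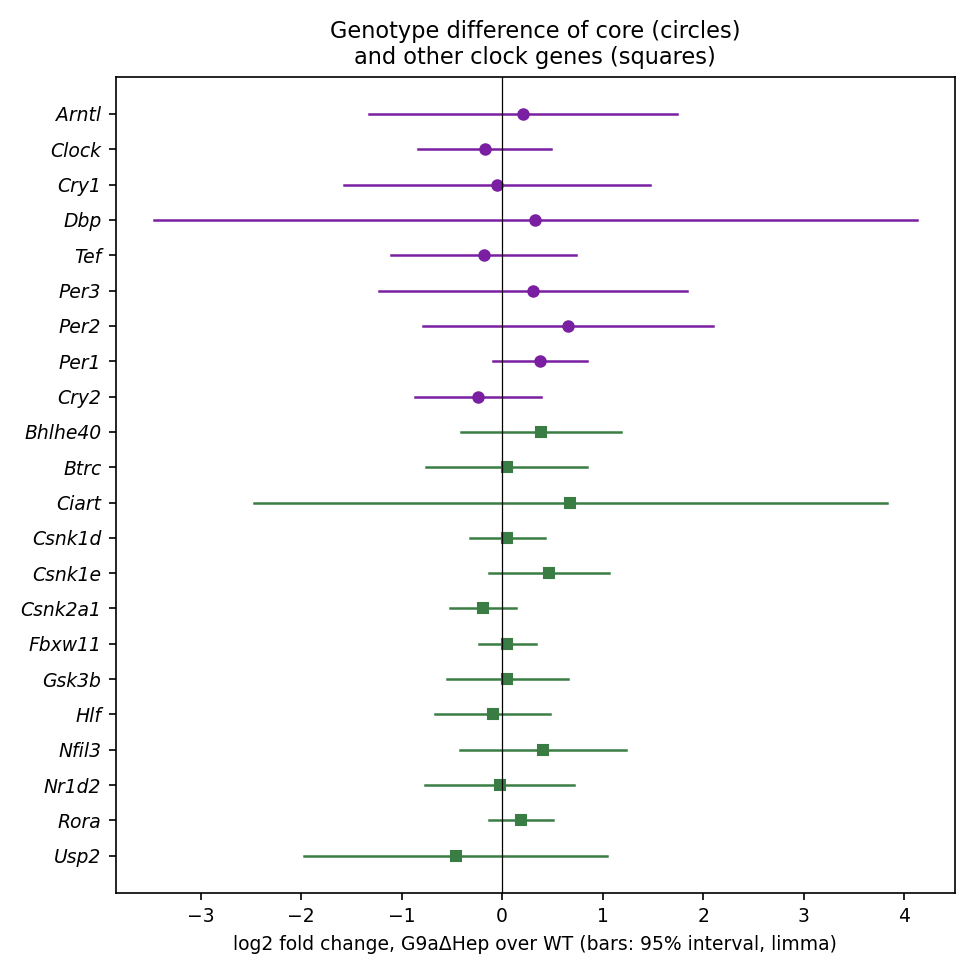
Log2 fold change of *G9a*ΔHep over WT liver in limma with its 95% interval, for the 9 core clock genes tested (circles) and 13 other clock genes (squares). Every interval included 0, that of *Dbp* reached from -3.46 to 4.12 and that of *Per1* from -0.09 to 0.85.

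The other genes of the clock were read from a list of 23 names, 2 of them for the same gene (*Ciart* and *Chrono*). Of these genes 19 had a probe set of their own and 13 were tested. None of the 13 passed the adjusted threshold in limma, and 0 had an unadjusted p under 0.05, against 10% of all genes tested. The median log2 fold change was 0.05, and the groups did not overlap for 2 genes that were higher in *G9a*ΔHep liver, *Rora* and *Csnk1e*, and 1 that was lower, *Csnk2a1*, with adjusted p-values of 0.68, 0.587 and 0.685. These counts were at or under the shares of 22.3% and 19.3% among all genes tested. Of the 13, 8 were higher and 3 lower on array 2 in both genotypes, where 56.6% of all genes tested had the same sign.

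The gene whose pattern lay nearest to that of *Dbp* was *Ciart*, also called *Chrono*, a repressor of the ARNTL and CLOCK complex. Its signal was 55.9 and 765.0 in WT liver and 150.5 and 728.7 in *G9a*ΔHep liver. Both signals on array 1 were not called Present (Absent and Marginal) and lay within the range of Absent signals, so that the size of the difference is not exact. Those on array 2 were Present, and *Ciart* was tested through them. Part of its window is printed since it holds 3 E-boxes, 2 of them in this stretch.
*Ciart* E-boxes, chr3:95882279-95882404, minus strand: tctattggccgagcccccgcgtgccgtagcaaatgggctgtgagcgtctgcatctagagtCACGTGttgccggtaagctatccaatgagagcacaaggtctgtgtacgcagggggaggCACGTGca

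*Usp2*, a deubiquitinase with rhythmic mRNA in liver, had signals of 1386 and 3012 in WT liver and of 801.9 and 2739 in *G9a*ΔHep liver, again higher on array 2 of each genotype. *Bhlhe40* (DEC1), which competes for E-boxes, stood at 1156 and 2123 in WT liver and at 1684 and 2496 in *G9a*ΔHep liver. Log2 fold changes between the genotypes were 0.68 for *Ciart*, -0.46 for *Usp2* and 0.39 for *Bhlhe40*, with adjusted p-values in limma of 0.899, 0.84 and 0.736.

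A further 3 genes were singled out after their values were seen, for their known roles. *Nr1d2* (REV-ERBβ), which represses at RORE sites, was at 5051 and 7962 in WT liver and at 4813 and 8059 in *G9a*ΔHep liver. *Hlf*, the PAR bZIP relative of *Dbp* and *Tef*, was at 796.1 and 1063 in WT liver and at 731.2 and 1018 in *G9a*ΔHep liver. *Nfil3*, a repressor at the D-boxes that *Dbp* activates, ran the other way, with 1793 and 1029 in WT liver and 2325 and 1398 in *G9a*ΔHep liver. Thus *Nr1d2* and *Hlf* had the direction of *Dbp* in both genotypes, and *Nfil3* that of *Arntl*. *Nr1d1* (REV-ERBα) was Absent on all arrays, with signals of 26.5 to 227.0, and gave no level.

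Of the kinases and ubiquitin ligases that set the stability of the PER and CRY proteins, *Csnk1d*, *Csnk1e*, *Csnk2a1*, *Gsk3b*, *Btrc* and *Fbxw11* were tested, and none was 2-fold apart in either genotype, which also holds for most genes tested. *Gsk3b* had the widest difference of them, with 1044 and 664.6 in *G9a*ΔHep liver (1.57-fold) and 750.8 and 859.5 in WT liver.

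The genes with the pattern most like that of *Arntl* were found by the Euclidean distance of log2 signals over the 4 arrays, each gene centred on its mean. *Ms4a4b* came first at a distance of 0.26, followed by *Clpx* (0.27), *Cry1* (0.30), *Dtx4* (0.32) and *Chka* (0.33). *Clpx*, a subunit of a mitochondrial protease, had signals of 11376 and 4827 in WT liver and of 12856 and 3921 in *G9a*ΔHep liver. For *Dbp* the nearest was *Ciart* at a distance of 0.999, and *Maff*, *Zfp78*, *Hectd2os* and *Zfp935* followed at 1.95 to 2.09. *Ciart*, *Maff* and *Zfp78* were Present on array 2 of each genotype and not on array 1, so that their distances rest in part on signals not above background. The same limit holds for *Ms4a4b*, Absent on *G9a*ΔHep array 2 at 92.17 and at 74.66 on WT array 2. *Zfp935* was Absent on WT array 1, and all its signals, 33.05 to 150.8, lay within the range of Absent signals. Over 4 arrays many genes can share a shape, and these distances are a description.

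Known rhythmic outputs of the liver were read from a list of 15 genes. Of the 13 tested, 8 were higher and 4 lower on array 2 in both genotypes, where 56.6% of all genes tested had the same sign. Between genotypes 0 of the 13 passed the adjusted threshold, with 1 at an unadjusted p under 0.05. Of all genes tested, 10% had such a p, so that 1 of 13 was no more than the background. That gene was *Nampt*, the rate-limiting enzyme of NAD salvage, at 2651 and 2765 in WT liver and at 1298 and 1806 in *G9a*ΔHep liver (log2 fold change -0.82, adjusted p = 0.227). *Noct*, a deadenylase-like enzyme named nocturnin, was at 1114 and 1691 in WT liver and at 888.4 and 2824 in *G9a*ΔHep liver. *Rgs16*, a regulator of G protein signalling, was at 761.1 and 2849 in WT liver and at 1029 and 1836 in *G9a*ΔHep liver. Both were higher on array 2 in each genotype, as *Per2* and *Dbp* were, and *Elovl3*, a fatty acid elongase chosen after its values were seen, was lower there, with 15753 and 6864 in WT liver and 14454 and 6083 in *G9a*ΔHep liver.

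Feeding and glucocorticoids also set clock and output genes, so their targets were read on the same arrays. Of 10 feeding and fasting genes tested, 3 were higher and 2 lower on array 2 in both genotypes, where 56.6% of all genes tested had the same sign. Between genotypes 0 of the 10 passed the adjusted threshold, with 0 at an unadjusted p under 0.05, against 10% of all genes tested. *Igfbp1*, which insulin represses, was at 7915 and 10660 in WT liver and at 33797 and 9092 in *G9a*ΔHep liver. *Pdk4*, a kinase of pyruvate dehydrogenase that rises on fasting, was at 779.3 and 491.5 in WT liver and at 3935 and 725.4 in *G9a*ΔHep liver. Both were highest on *G9a*ΔHep array 1. *Pdk4* was lower on array 2 in both genotypes, the direction of *Arntl*. *Igfbp1* was higher on array 2 in WT liver and lower there in *G9a*ΔHep liver, unlike *Arntl* or *Dbp*. *Lpin1*, a phosphatidate phosphatase, was at 6090 and 16120 in WT liver and at 8343 and 19631 in *G9a*ΔHep liver, which was the split of *Dbp*.

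Of 9 glucocorticoid targets tested, *Per1* among them, 0 were 2-fold apart in either genotype and 0 passed either threshold between genotypes. Of all genes tested, 4.32% were 2-fold apart in WT and 4.89% in *G9a*ΔHep liver, and 10% had an unadjusted p under 0.05. Counts of 0 among 9 are thus near the background. *Fkbp5* was at 3835 and 5297 in WT liver and at 3844 and 5791 in *G9a*ΔHep liver. *Tat* was at 22993 and 37168 in WT liver and at 25487 and 27911 in *G9a*ΔHep liver, and *Mt2* at 25693 and 21242 in WT liver and at 33355 and 21638 in *G9a*ΔHep liver. *Fkbp5* and *Tat* were higher and *Mt2* lower on array 2 in each genotype.

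Liver is a mixture of cells, and in bulk RNA fewer cells of a type and less RNA per cell cannot be told apart. The summed signal of 7 hepatocyte markers was 418696 and 401651 in WT liver and 411152 and 362936 in *G9a*ΔHep liver. Of the 7, 0 were 2-fold apart in either genotype, against 4.32% of all genes tested in WT and 4.89% in *G9a*ΔHep liver. *Cps1*, 1 of the 7, had both *G9a*ΔHep arrays below both WT arrays, against 19.3% of all genes tested, and 0 had both above. The sum of 8 macrophage markers was 23515 and 36305 in WT liver and 53987 and 34327 in *G9a*ΔHep liver. The sum of 7 stellate cell markers was 8913 and 13396 in WT liver and 17891 and 10907 in *G9a*ΔHep liver, with *Des* Absent on all arrays. In both sums WT array 1 was the lowest and *G9a*ΔHep array 1 the highest. *Dcn*, whose groups overlapped, made up most of the stellate cell sum. Both *G9a*ΔHep arrays lay above both WT arrays for 5 of the 7 stellate cell and 3 of the 8 macrophage markers, against 22.3% of all genes tested. In neither list did a marker have both below. *Acta2* was at 201.0 and 232.3 in WT liver and at 530.5 and 405.2 in *G9a*ΔHep liver (adjusted p = 0.198, limma). It was not called Present on WT array 1 and *G9a*ΔHep array 2. None of these markers passed the adjusted threshold. The 7 endothelial markers summed to 9924 to 11943 over the arrays, and *Pecam1* was Present on 1 array. Of the cholangiocyte and lymphocyte markers 2 each were tested. The cholangiocyte pair summed to 247.8 and 204.0 in WT liver and to 738.0 and 435.6 in *G9a*ΔHep liver. Of that pair, *Pkhd1* was at 74.8 and 120.0 in WT liver and at 477.8 and 286.2 in *G9a*ΔHep liver without overlap (log2 fold change 1.97, adjusted p = 0.163, limma). At each probe set, *Krt19*, *Krt7*, *Epcam* and *Cftr* were Present on no more than 1 array, in each case a *G9a*ΔHep array. *Cd3e*, *Cd4* and *Cd79a* were Absent on all arrays. The part of cell mixture in the clock gene differences was not tested.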

How the data were processed

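RNA from the liver of 2 WT and 2 *G9a*ΔHep mice was measured on 1 Affymetrix Mouse430_2 array each, and groups were taken from the labels. Per the labels, the authors processed the arrays with MAS5 (version not given in the sources used here). Each deposited value is a linear intensity, already scaled per array. It comes with the detection p-value of the probe set, from which the authors' software made the call (Present, Marginal or Absent). The number of arrays limits the precision. Of the probe sets, 64 controls were left out, 34945 named 1 gene, 932 several and 9160 none, and only the first kind was used.

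Log2 signals without a pseudocount were compared with limma 3.58.1 (lmFit, eBayes with trend, Benjamini-Hochberg over 10350 genes, threshold 0.05) in R 4.3.3, with 2 residual and 4.02 prior degrees of freedom. A gene was represented by its brightest probe set among those Present on at least 2 arrays. Steps were tested on simulated data. Differences between arrays of a genotype were described without a test. The members and gene lists were chosen with earlier results of these data known. Beside all members, a rule named up to 3 genes with the widest difference between arrays of a genotype in each clock, output, feeding and glucocorticoid list. The 5 nearest to *Arntl* and *Dbp* were also named. Other genes, among them *Nampt*, *Rora*, *Csnk1e*, *Csnk2a1*, *Gsk3b* and the cell type markers, were named outside that rule. Promoters came from RefSeq (GRCm38.p6). Alternatives varied the test, scaling, detection filter, probe set choice, pseudocount, input table and arrays.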

Additional observations from a re-analysis of the deposited data

How the results depend on the processing

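Of 14 other settings, 4 left out 1 array. In those that kept all arrays, 0 core clock genes and 0 of the other clock genes were called in either direction. The methods' t-test and the fit without a mean-variance trend called 0 of all genes tested, so their counts of 0 were fixed. The others that kept all arrays called 11 to 40 higher and 4 to 9 lower over all genes or probe sets, so few calls were possible. The methods' t-test gave 0 core genes at an unadjusted p under 0.05, each probe set on its own gave 1 core probe set (of *Per3*), and the fits without *G9a*ΔHep array 1 and without *G9a*ΔHep array 2 gave 3 (*Per1*, *Per2* and *Per3*) and 1 (*Tef*). Of the other clock genes, 1 had such a p by the methods' t-test, and 2 had with each probe set on its own, without WT array 2 and without *G9a*ΔHep array 2. The median log2 fold change of the core genes ranged from -0.24 without *G9a*ΔHep array 2 to 0.32 without *G9a*ΔHep array 1. The log2 fold change changed sign for *Clock* at 2 other probe sets (0.44 and 0.30) and with the mean of probe sets (0.091), for *Per3* at 1 probe set (-0.29), and for *Tef* at 1 probe set (0.31) and with the mean (0.061). Leaving out 1 array at a time gave -0.62 to 1.03 for *Arntl*, -0.50 to 0.15 for *Clock*, -0.24 to 1.55 for *Per2*, -0.59 to 1.199 for *Per3*, -0.81 to 0.70 for *Cry1*, -0.534 to 0.053 for *Cry2*, -1.67 to 2.33 for *Dbp* and -0.69 to 0.32 for *Tef*. With 1 array left in a group, that array was assumed to vary like the others. *Per1* kept its sign, with 0.18 to 0.58. The array difference of the morning group in *G9a*ΔHep liver was -0.67 with each probe set on its own. That of the late day group was 1.62 in WT and 1.78 in *G9a*ΔHep liver with each probe set, 1.87 in *G9a*ΔHep liver with the mean of probe sets, and 1.71 and 1.89 with a pseudocount of 100. Without *Dbp*, an alternative chosen after seeing the data, it was 0.862 and 1.401. None of these array differences changed sign. No replicate block was fitted, since the array numbers follow the order of the samples and pair nothing.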

Other observations

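Other genes also differed between the arrays of a genotype in the direction that *Arntl* and *Cry1* did. In the order by the smaller of the 2 log2 differences, *Cxcr6* ranked 2, *Moxd1* 3, *Cyp2c70* 4 and *Saa2* 6 of 10350. *Cxcr6*, a chemokine receptor of lymphocytes, had signals of 84.5 and 7.53 in WT liver and of 55.1 and 3.1 in *G9a*ΔHep liver, all within the range of Absent signals, so that its difference is not exact. *Cyp2c70*, which hydroxylates bile acids in mice, had signals of 26346 and 4248 in WT liver and of 10383 and 1822 in *G9a*ΔHep liver. *Saa2*, an acute phase protein of hepatocytes, was at 19572 and 1349 in WT liver and at 9150 and 2231 in *G9a*ΔHep liver. *Moxd1*, a monooxygenase, was at 2028 and 324.1 in WT liver and at 1567 and 154.4 in *G9a*ΔHep liver. The latter 3 were higher on array 1 of each genotype, opposite to *Dbp*, and their groups overlapped between genotypes. They were chosen after their values were seen, and the differences between arrays have no test.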
